A study of Mus musculus with 4 samples.

Results

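Expanded B-cell clones with receptors other than those known to bind phosphatidylcholine were followed here through their V genes, their junction sequences and their transcripts. A member is a barcode with 1 productive IgM heavy-chain contig and 1 kappa contig. A clonotype is the set of barcodes of 1 library whose heavy and kappa chains both share V gene, J gene and the nucleotides of CDR3, the junction at which gene segments are joined. Clonotypes of 6 or more barcodes were kept, and the pairs IGHV11-2/IGKV14-126 and IGHV12-3/IGKV4-91, called phosphatidylcholine-type (PtC-type) below, were left out. This left 66 clones with 599 barcodes among 8080 barcodes paired in this way and 13203 barcodes with any receptor contig. The HFD library held 8 clones with 128 barcodes and the CD library 58 clones with 471 barcodes. Clone size chose the members, so sizes are descriptions and were not tested.

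The cells were CD45+ leukocytes sorted from peritoneal lavage of WT mice that ate a high-fat diet (HFD) or chow (CD) for 3 months, starting at 4 weeks of age. Each diet had 1 gene expression library and 1 receptor library, so no difference between diets could be tested. The number of mice and any pooling are not given in the sources used here, and 1 of the protocol texts describes high-fat feeding for every sample although the series' design text gives chow for CD. Expression is given as unique molecular identifiers (UMIs), tags that mark single captured RNA molecules.

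Many B cells of the mouse peritoneal cavity are B-1 cells, a self-renewing lineage that makes natural IgM without prior immunization and carries a restricted receptor repertoire. Receptors of IGHV11 and IGHV12 that bind phosphatidylcholine, a membrane lipid, are the classical example of such restriction. Follicular or B-2 cells, which recirculate through lymphoid organs, carry IgD, the IgE receptor CD23 (Fcer2a) and the complement receptor CD21 (Cr2), and typically differ from cell to cell in their receptors.

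Of 7 V pairs among HFD clones and 51 among CD clones, 4 were used in both libraries, and they covered 5 HFD clones with 96 barcodes and 8 CD clones with 103 barcodes. Their heavy-chain CDR3 runs are printed 5′ to 3′ as assembled in the deposited contig tables, from the codon of the first cysteine to that of the closing tryptophan or, in kappa chains, phenylalanine, because they show where clones of the 2 diets coincide. Heavy chains are encoded on chromosome 12 and kappa chains on chromosome 6. In the first set, IGHV1-55 with IGKV12-89, capitals mark the run of 19 bases that all 5 heavy chains end with. The same run also ends other IGHJ1 chains, among them HFD clone 7 and CD clones 1 and 11 of the fourth set. It ends PtC-type IGHV11-2 clonotypes as well, so it is not particular to this V pair.
HFD clone 1 heavy: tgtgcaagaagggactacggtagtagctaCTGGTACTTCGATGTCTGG
HFD clone 2 heavy: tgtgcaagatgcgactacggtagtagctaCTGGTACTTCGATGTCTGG
CD clone 2 heavy: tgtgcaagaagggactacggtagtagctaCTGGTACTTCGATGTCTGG
CD clone 12 heavy: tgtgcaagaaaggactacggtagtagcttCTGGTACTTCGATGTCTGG
CD clone 13 heavy: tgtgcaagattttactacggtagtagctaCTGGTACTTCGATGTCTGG

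These 5 clones, with 41, 23, 22, 8 and 8 barcodes in the order printed, all had IGHJ1 and a heavy CDR3 of 16 codons. HFD clone 1 and CD clone 2 had identical heavy CDR3 runs but different kappa junctions, with IGKJ4 in HFD clone 1 and IGKJ1 in CD clone 2. Counted from base 1 of the run and written from HFD clone 1 to the other clone, HFD clone 2 differed by A10T and G12C, CD clone 12 by G11A and A29T, and CD clone 13 by A10T, G11T, G12T and G13T. HFD clone 1 and CD clone 12 also had the same kappa CDR3. The full receptor of CD clone 2 was found in 4 further barcodes of the HFD library.

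In the second set, IGHV1-47 with IGKV1-110, the heavy runs of 9 codons were identical throughout and stand in capitals, and capitals in the kappa runs mark the 4 bases within which they differ.
HFD clone 5 heavy: TGTGCAAGGGGGGGGTTTGCTTACTGG
CD clone 8 heavy: TGTGCAAGGGGGGGGTTTGCTTACTGG
HFD clone 5 kappa: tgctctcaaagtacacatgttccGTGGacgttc
CD clone 8 kappa: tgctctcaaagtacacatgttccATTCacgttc

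Both of these receptors occurred in both libraries in different numbers. The IGKJ1 form had 10 barcodes in the HFD library and 4 in the CD library, and the IGKJ4 form had 2 in the HFD library and 9 in the CD library. In all, 15 clonotypes were found in both libraries, of which 7 were PtC-type and 8 were not, and 3 of those 8 were expanded in 1 library. Of the 1-barcode clonotypes that were not PtC-type, 2 of 1408 in the HFD library and 3 of 2293 in the CD library had a match in the other library. No barcode of an expanded clone was shared by the libraries, against 5 of all paired barcodes.

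The third set, IGHV12-3 with IGKV4-57-1, uses the heavy V gene of one of the PtC-type pairs with another kappa V gene, and capitals mark a glycine codon.
HFD clone 4 heavy: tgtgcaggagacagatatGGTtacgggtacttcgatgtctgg
CD clone 7 heavy: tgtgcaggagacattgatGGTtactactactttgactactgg

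Between the first 3 codons and the closing tryptophan codon, both runs hold 10 codons with glycine at place 4. This arrangement was present in 15 of 15 IGHV12-3/IGKV4-91 clones of 6 or more barcodes and in 2 of 2 clones with IGKV4-57-1. These 2 clones had the same kappa CDR3, 13 barcodes in HFD clone 4 and 10 in CD clone 7, and differed by 10 bases in the heavy run.

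The fourth set, IGHV1-52 with IGKV1-117, joined HFD clone 7 with 9 barcodes to CD clones 1, 11 and 34 with 32, 8 and 6 barcodes. Capitals mark the single base by which CD clones 1 and 11 differ (A6T from clone 1 to clone 11), which have the same kappa CDR3.
HFD clone 7 heavy: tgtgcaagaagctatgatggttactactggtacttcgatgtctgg
CD clone 1 heavy: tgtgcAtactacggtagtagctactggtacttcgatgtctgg
CD clone 11 heavy: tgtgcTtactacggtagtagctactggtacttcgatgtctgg
CD clone 34 heavy: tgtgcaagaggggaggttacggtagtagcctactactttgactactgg

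Before the sizes are read, the barcodes within a clone were compared with each other. For every pair of barcodes of 1 clone, chi-square per degree of freedom over the genes with at least 4 UMIs in the pair was computed, a measure that is near 1 when the pair differs by counting noise alone. Shallow pairs have less power to show a difference and can also lie near 1. Median depth was 9420 UMIs in HFD and 3894.5 in CD expanded barcodes, and the part of depth in the shares below was not tested. Pairs below 1.1 made up 0.392% (5 of 1275) in HFD expanded clones and 20.03% (258 of 1288) in CD expanded clones. Pairs of different 1-barcode clonotypes of adjacent depth gave 0.447% in HFD and 0.688% in CD, PtC-type clones 0.465% and 1.33%, and clonotypes of exactly 2 barcodes 53.7% and 63.0%, HFD first in each. Barcodes that agreed within this noise were then grouped by average linkage at 1.1, and a group is called a profile. In HFD, 122 barcodes with expression data gave 117 profiles, and 8 of 8 clones kept 6 or more. In CD, 298 barcodes gave 174 profiles and 7 of 58 clones (1, 2, 3, 5, 9, 10 and 16), with 70 profiles, kept 6 or more. A further 10 CD clones of at least 2 barcodes gave 1 profile each. How such barcodes arose was not tested, and the counts of genes called, the gene lists and the named genes are also given for clones of 6 or more profiles with 1 barcode per profile, where their calls differ.

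**Figure D1:**
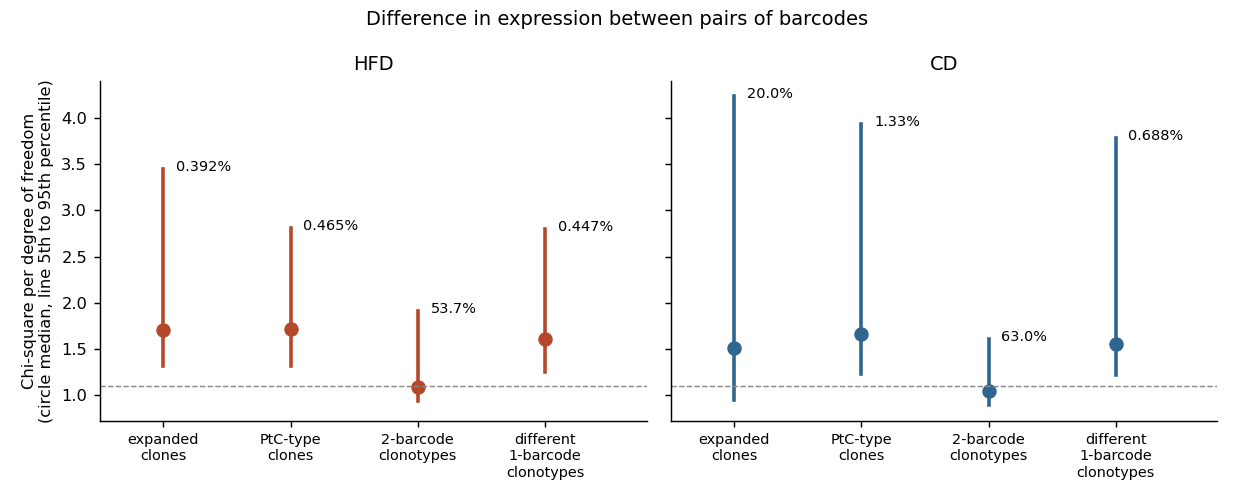
Chi-square per degree of freedom between 2 barcodes, by kind of pair, in the HFD library (left) and the CD library (right); circles are medians, lines run from the 5th to the 95th percentile, the dashed line is 1.1 and the numbers give the share of pairs below it. CD expanded clones have 20.03% of their pairs below the line, HFD expanded clones 0.392%, and clonotypes of 2 barcodes 53.7% in HFD and 63.0% in CD.

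Receptor data showed repeats of the same kind. Among barcodes with at least 2 heavy and at least 2 light contigs, which the rule leaves out, 22 of 140 in the HFD library (15.7%) and 240 of 501 in the CD library (47.9%) shared their exact combination of contigs with another barcode. Expression data existed for 95.3% of HFD and 63.3% of CD expanded barcodes, and 5 CD clones had none. The CD share was 56.8% in clones of 6 to 9 barcodes and 81.0% in clones of 10 or more. It was 93.4% in HFD and 88.4% in CD for 1-barcode clonotypes. CD barcodes of expanded clones without expression data had a median of 7 heavy-chain UMIs, against 14 in those with it.

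Expanded barcodes made up 4.67% of paired barcodes in HFD and 8.82% in CD. HFD clones had 8 to 41 barcodes with a median of 11.5, and CD clones 6 to 32 with a median of 7. The thresholds touched the libraries unequally, since 0 HFD and 26 CD clones had exactly 6 barcodes and 6 HFD and 32 CD clonotypes had exactly 5. Clones of 10 or more barcodes numbered 5 with 102 barcodes in HFD and 7 with 126 barcodes in CD. The largest, HFD clone 1, had 41 barcodes, 39 with expression data and 37 profiles, whereas CD clone 1 had 32, 27 and 21.

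**Figure D2:**
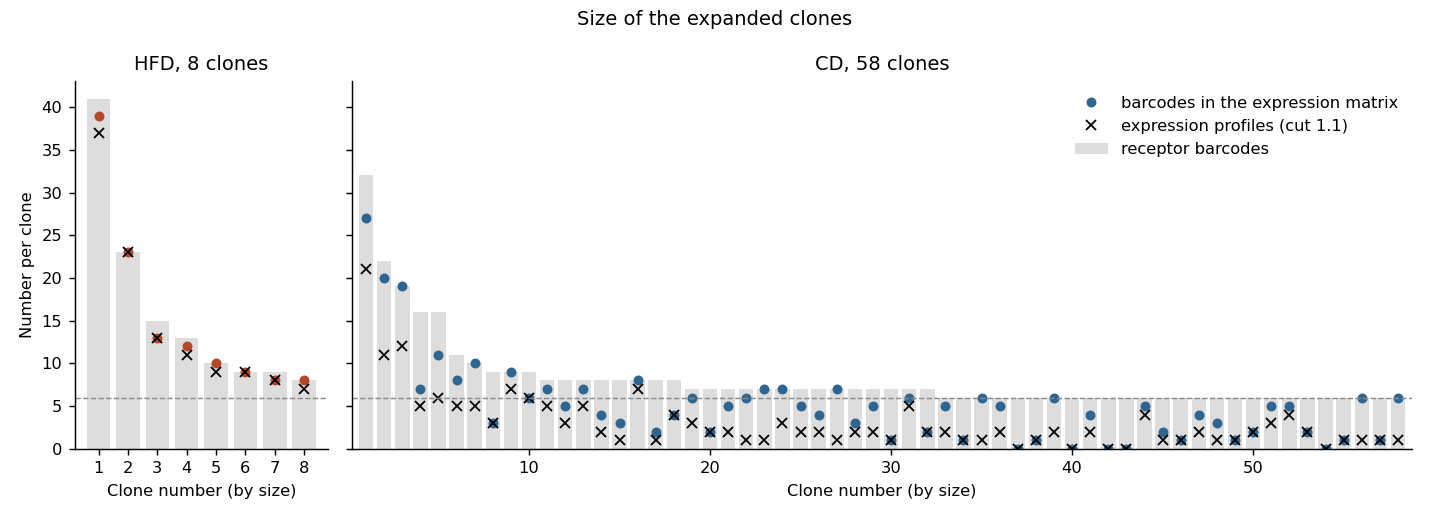
Size of each expanded clone, ordered by size, in the HFD library (left, 8 clones) and the CD library (right, 58 clones). Bars are receptor barcodes, circles barcodes in the expression matrix and crosses expression profiles; the dashed line is the threshold of 6. The crosses of 8 HFD clones and 7 CD clones lie on or above it.

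The HFD clones used 6 heavy-chain and 7 kappa V genes, and the CD clones 33 and 26. IGHV1-55 was used by 3 of 8 HFD clones, with 79 of 128 barcodes (61.7%, exact 95% interval 52.7 to 70.2%), and by 7 of 58 CD clones, with 65 of 471 barcodes (13.8%, 10.8 to 17.2%). Among 1-barcode clonotypes it was used by 3.97% in HFD and 2.82% in CD. IGHV6-3, used by 0 of 8 HFD and 8 of 58 CD clones, made up 3.55% and 3.82% of 1-barcode clonotypes. Of the 8 CD clones with IGHV6-3, none is among the 7 that kept 6 or more profiles. CD clone 26 paired IGHV11-2, the heavy V gene of the other PtC-type pair, with IGKV1-135. Barcodes of a clone share their receptor by definition, so these intervals cover counting error only.

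Among the heavy-chain J genes, IGHJ1 was used by 4 of 8 HFD clones and 10 of 58 CD clones. It was used by 18.3% of HFD and 14.3% of CD 1-barcode clonotypes, and by 15 of 16 HFD and 15 of 18 CD PtC-type clones. IGHJ2 was used by 0 of 8 HFD and 21 of 58 CD clones. The median heavy CDR3 was 14.5 codons in HFD and 13 in CD expanded clones, against 14 and 13 in 1-barcode clonotypes, and the median kappa CDR3 was 11 codons in each of these classes. The shortest heavy CDR3 had 9 codons in HFD and 7 in CD clones, and the longest 18 and 17.

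The V regions outside CDR3, which the rule did not use, were compared with the most frequent sequence of each V gene over both libraries, as no germline sequence was used here. Of 128 HFD expanded barcodes, 0 differed in either chain, and 3 counts of 128 would be a share of 2.34% (exact 95% upper limit 2.84%). These barcodes come from 8 clones and are not independent, so both limits cover counting error only. In CD, 72 of 471 heavy V regions (15.3%, exact 95% interval 12.2 to 18.9%) and 56 kappa V regions (11.9%) differed by at least 1 base. Heavy V regions differed in 3.07% of HFD and 9.18% of CD 1-barcode clonotypes, and in 0 PtC-type barcodes of either library. The differences lay in few clones, as 48 of 58 CD clones carried the most frequent sequence in both chains in every barcode.

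Several V-region sequences within 1 CDR3-defined clone were present in 7 CD clones (5, 29, 31, 32, 50, 51 and 53). CD clone 5, with IGHV2-5, had 4 heavy sequences over 16 barcodes, with 0 to 6 differences each. CD clone 31, with IGHV6-6, had 4 heavy sequences over 7 barcodes, with 1 to 5 differences. A further 3 CD clones (38, 39 and 45) had 1 differing sequence in every barcode, the largest distance among them being 9 heavy-chain bases in clone 39. Of the 10, only CD clone 5 had 6 or more profiles. Contigs with the CDR3 of an expanded clone and an IgD constant region numbered 0 in HFD and 1 in CD, and those with a switched constant region 0 and 2. They stood beside 141 IgM contigs in HFD and 506 in CD. Of these IgM contigs, 128 in HFD and 471 in CD belong to members, which the rule required to be IgM. The counts therefore set no limit on switching in these clones. Over all heavy contigs, which were not chosen by constant region, switched constant regions made up 1.45% in HFD and 3.65% in CD.

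By transcripts the members were B cells. Cd79a, a signalling chain of the receptor, was at 2834 to 3523 CPM, UMIs scaled to a common library total, across the 8 HFD clones and at 1012 to 6742 CPM across the 53 CD clones with expression data. Ighm, the IgM constant region, was at 1391 to 7539 CPM and 462 to 4276 CPM, and Mzb1, a chaperone of IgM assembly, at 761 to 1884 CPM and 122 to 2068 CPM, HFD clones first. None of these genes was at 0 in any clone. Median depth was 9420 UMIs in HFD and 3894.5 in CD expanded barcodes, against 5805 and 5429 in 1-barcode clonotypes. Among CD clones, 4 (24, 35, 39 and 56) had the macrophage lysozyme Lyz2 above 10000 CPM in every barcode. Doublets were not called here, so barcodes of mixed content remain.

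Against 1-barcode clonotypes, the expanded clones were higher in B-1 markers and lower in B-2 markers in both libraries. Fcer2a was at 2.31 CPM in HFD and 6.75 CPM in CD expanded clones, against 182 and 139.5 CPM in 1-barcode clonotypes. Ctla4, an inhibitory receptor, was at 49.2 and 39.2 CPM, against 16.05 and 14.8 CPM. Sums of UMIs per library and class were tested with edgeR's quasi-likelihood test, the library being a block, which sets 4 sums against each other with 1 residual degree of freedom. Of 11436 genes tested, 1017 had a Benjamini-Hochberg adjusted p below 0.05 (8.89%), 669 higher (5.85%) and 348 lower (3.04%). The block removes the difference in level between the 2 libraries, which are of different diet. With 1 residual degree of freedom, the p-values lean on a spread shared over genes. They do not measure how far the difference of a single gene varies between libraries or mice. Barcodes and clones were not treated as replicates.

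Of the B-1 list, 13 of 15 genes rose, 0 fell and the median log2 difference was 0.88, against -0.00 over all genes tested. The largest rises were in Ctla4 (1.58 ± 0.20 SE on the log2 scale, adjusted p 1.05e-13), the receptor inhibitor Cd5 (1.36 ± 0.30, adjusted p 0.000130), Plscr1 (1.34 ± 0.13), the surface sialoprotein Spn, known as CD43 (1.25 ± 0.20), and the transcription factor Zbtb32 (1.11 ± 0.12). Zbtb32 was at 254 CPM in HFD and 190 CPM in CD expanded clones, against 122 and 93.7 CPM in 1-barcode clonotypes. Bhlhe41, a transcription factor needed for B-1a cells, was at 43.1 and 33.1 CPM, against 26.5 and 17.4 CPM. Ahnak and Vim did not pass the test, with Vim at 3122 and 2218 CPM in expanded clones and 3147 and 2216 CPM in 1-barcode clonotypes.

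Of the B-2 list, 9 of 10 genes fell and the median log2 difference was -1.82. Cr2 had 0 UMIs in HFD expanded clones, at least 23.8-fold lower than the 54.9 CPM of 1-barcode clonotypes (against a limit of 3 counts in the summed library), and was at 9.46 CPM in CD expanded clones, against 49.7 CPM. Ccr7, a chemokine receptor for entry into lymph nodes, was at 27.7 and 101 CPM, against 297 and 352 CPM (log2 -2.33 ± 0.14, adjusted p 2.92e-58). Ighd was at 44.6 and 85.1 CPM, against 330 and 279 CPM. Klf2 did not pass the test, at 1374 and 1609 CPM against 1525 and 1588 CPM. With 1 barcode per profile from clones of 6 or more profiles, 802 of 11427 genes were called, 514 higher and 288 lower. In that setting 11 of 15 B-1 genes rose and 9 of 10 B-2 genes fell. With DESeq2 8 B-1 genes rose and 7 B-2 genes fell, and with no replicate block 7 and 9.

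**Figure D3:**
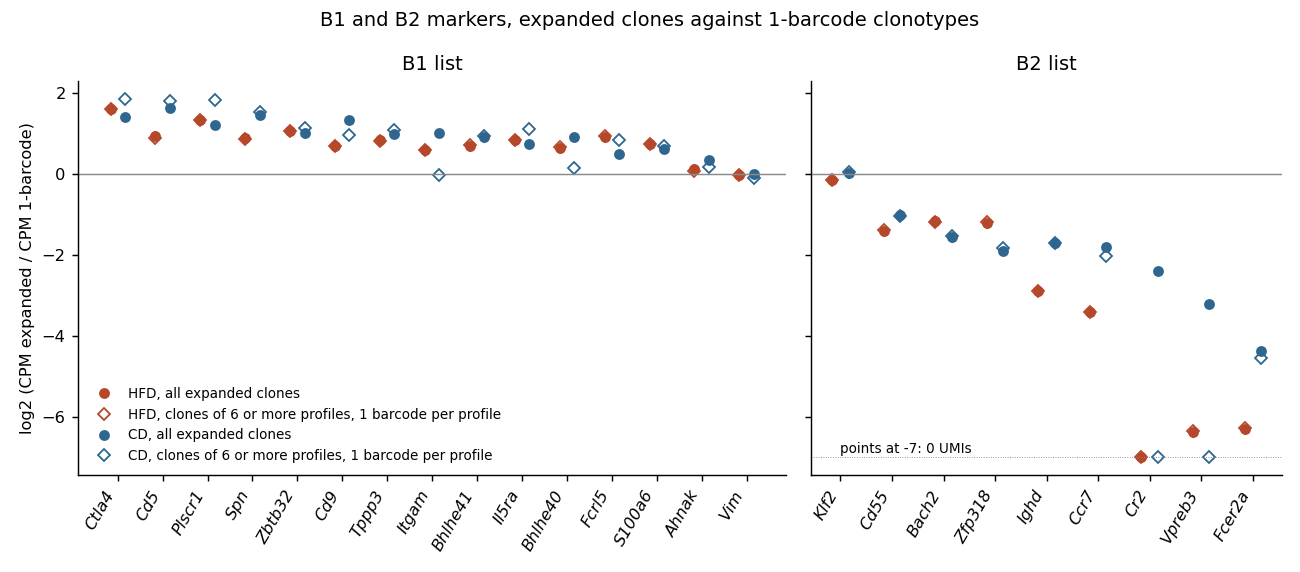
Log2 ratio of CPM in expanded clones over 1-barcode clonotypes for the B-1 list (left) and the B-2 list (right), HFD in red and CD in blue; filled circles are all expanded clones, open diamonds the clones of 6 or more profiles with 1 barcode per profile, and points on the dotted line had 0 UMIs. In both libraries 8 of the 9 B-2 genes plotted lie below 0, and Klf2 lies near it.

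The share of barcodes with more UMIs of the B-1 list than of the B-2 list was 99.2% in HFD and 90.6% in CD expanded clones, 99.5% and 97.9% in PtC-type clones, and 64.0% and 57.0% in 1-barcode clonotypes. Clone by clone the values ranged widely in CD, where several clones rested on 1 barcode. CD clone 34 had 1 barcode with 2225 UMIs, and CD clone 49 had 1 with 2130. Each HFD clone had at least 8 barcodes with expression data. At such low depth a few UMIs or none set the CPM of a clone. Zeros and highest values over all CD clones are therefore not read as differences between clones. Zbtb32 was at 230 to 422 CPM in the 8 HFD clones, all above the 122 CPM of HFD 1-barcode clonotypes. In CD it was at 0 to 899 CPM with a median of 178, at 0 in 10 of 53 clones, and at 136 to 288 CPM in the 7 clones of 6 or more profiles. Ccr7 was at 0 to 60.1 CPM in HFD clones and at 0 to 1554 CPM in CD clones. CD clone 10, with IGHV5-16, had 368 CPM of Ccr7, the highest among the 7 CD clones of 6 or more profiles, beside a B-1 list sum of 3466 CPM, the lowest among them.

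Called genes with the same direction in both libraries were also ranked by size of difference, list genes such as Jchain and Top2a included. The 12 genes with the largest rises at 30 CPM or more in the mean of the higher class were Jchain, Lipc, Pclaf, Top2a, Zcwpw1, Sapcd1, Ahnak2, Krt8, Pstpip2, Pou2af2, Vsig4 and Nacc2, with 3.56-fold to 42.9-fold differences. Zcwpw1, a histone methylation reader known from meiosis, was at 191 CPM in HFD and 51.3 CPM in CD expanded clones, against 30.8 and 16.8 CPM in 1-barcode clonotypes (log2 2.31 ± 0.14, adjusted p 1.18e-53). It was found in 8 of 8 HFD clones, at 29.1 to 446 CPM, and in 21 of 53 CD clones, several of which rested on 1 shallow barcode. Lipc, the hepatic lipase, was at 47.7 and 18.9 CPM, against 8.96 and 2.17 CPM. Krt8, a keratin, was at 58.5 and 19.6 CPM, against 12.1 and 5.62 CPM, and Ahnak2 at 132 and 56.7 CPM, against 30.5 and 13.5 CPM.

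The 12 genes with the largest falls were Fcer2a, Vpreb3, Cr2, Cpm, Lrrk2, Ms4a4c, Chchd10, Ccr6, Gpr171, Ccr7, Neurl3 and Satb1, with 4.56-fold to 32.3-fold differences. Vpreb3, a partner of receptor chains during their assembly, was at 0.769 CPM in HFD and 6.75 CPM in CD expanded clones, against 63.3 and 62.5 CPM. Lrrk2, a kinase, was at 5.38 and 16.2 CPM, against 73.7 and 69.1 CPM. Satb1, a chromatin organiser, was at 5.38 and 9.46 CPM, against 39.2 and 33.7 CPM. All 24 named genes passed the test with clones of 6 or more profiles, although Pclaf and Top2a were at 0 in the CD clones among them, while DESeq2 did not call Cr2, Cpm, Ms4a4c, Ccr6, Gpr171 and Neurl3 and the fit with no replicate block did not call Jchain, Lipc, Pclaf, Top2a, Zcwpw1, Krt8 and Vsig4.

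Jchain, which links IgM into pentamers for secretion, came from 1 clone in HFD. It was at 398 CPM in HFD and 9.46 CPM in CD expanded clones, against 7.64 and 1.29 CPM in 1-barcode clonotypes. HFD clone 2 held 99.2% of the HFD UMIs and a single barcode 455 of 517 (88.0%), and that barcode also had 2478 heavy-chain and 6053 kappa contig UMIs, the highest among HFD expanded barcodes. Without that clone the HFD level was 4.07 CPM, below that of 1-barcode clonotypes. In CD, 14 UMIs lay in 13 of 53 clones, with no more than 2 in a barcode. Prdm1, a regulator of plasma cell differentiation, was at 15.4 and 2.70 CPM, against 3.87 and 1.93 CPM (log2 1.58 ± 0.52, adjusted p 0.0331), and was found in 7 of 8 HFD clones. Of the antibody secretion list, 6 of 13 genes tested rose (Jchain, Derl3, Prdm1, Mzb1, Hsp90b1 and Ssr4) and 0 fell, whereas 3 rose without the largest clone of each library, 1 with DESeq2 and 0 with no replicate block. Among clones of 6 or more profiles 7 rose and 1 fell, the fall being in Slpi (adjusted p 1.49e-22). There Sec61b and Fkbp11 joined the rises and Prdm1 did not pass the test (adjusted p 0.0629). Mzb1 was at 1230 and 912 CPM, against 679.6 and 745 CPM, and Ighm at 4000 and 2164 CPM, against 2182 and 1953 CPM.

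Cell cycle genes were higher, and a few clones carried most of them. Of the list, 15 of 19 genes tested rose and 0 fell, with a median log2 difference of 1.66. Mki67, a marker of dividing cells, was at 36.2 CPM in HFD and 10.1 CPM in CD expanded clones, against 3.54 and 1.45 CPM. HFD clone 8, with IGHV2-2/IGKV3-5, had a list sum of 4227 CPM and 40.5% of the HFD UMIs, and the other HFD clones 146 to 728 CPM. CD clone 27 had 9967 CPM and 39.8% of the CD UMIs in 7 barcodes that formed 1 profile, and CD clone 7 had 2506 CPM. In the 7 CD clones of 6 or more profiles the sum was 129 to 313 CPM, against 301 CPM in CD 1-barcode clonotypes, and Mki67 and Top2a were at 0. With clones of 6 or more profiles 8 of 19 genes rose, with DESeq2 10 and with no replicate block 3.

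**Figure D4:**
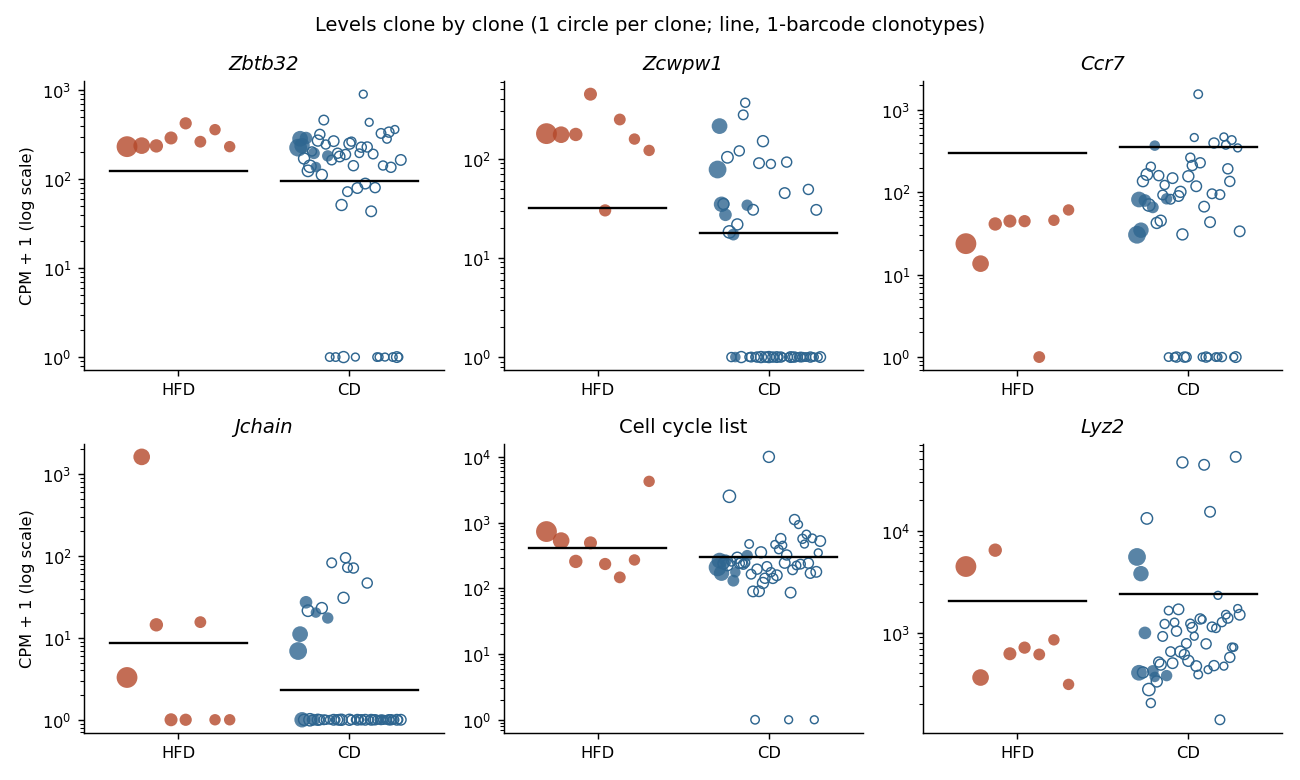
Levels of 6 measures clone by clone on a log scale of CPM + 1, HFD left and CD right in each panel; each circle is a clone with area by its barcodes, filled circles are clones of 6 or more profiles, and black lines give 1-barcode clonotypes of the same library. Zbtb32 lies above the line in all 8 HFD clones, whereas Jchain, the cell cycle list and Lyz2 stand out in single clones.

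Of 15 receptor signalling genes, 0 were called in either direction, with a median log2 difference of 0.05. Of 11 Toll-like receptor genes, 0 were called. Over all genes tested the share called was 8.89%, so 0 calls in lists this short are not read as a result about them. Among inhibitors of receptor signalling, Cd5, Ctla4, Fcrl5 and the phosphatase Ptpn22 rose and Cd22 and Cd72 fell, of 12 tested. Ptpn22 was at 145 CPM in HFD and 146 CPM in CD expanded clones, against 64.1 and 71.2 CPM. Of 13 activation genes, Jun rose and the early activation marker Cd69 and Tagap fell, with Cd69 at 17.7 and 66.2 CPM, against 71.0 and 170 CPM. Of 7 regulatory genes tested, Il10, Ebi3 and Lgals1 rose and Il12a fell. Il10, a suppressive cytokine, rested on 14 UMIs in HFD and 2 in CD, and Ebi3, a subunit of suppressive cytokines, was at 58.5 and 58.1 CPM, against 32.5 and 27.9 CPM. In the clones of 6 or more profiles Il12a and Tagap did not pass the test (adjusted p 0.0625 and 0.0695), while Siglecg, an inhibitory lectin, and Tlr7, a sensor of RNA, rose.

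Of 11 homing genes, 5 fell, among them Ccr6, Ccr7, S1pr4 and Gpr183, and the integrin chain Itgb1 rose, at 242 CPM in HFD and 203 CPM in CD expanded clones, against 149 and 119 CPM. Of 8 switching and mutation genes, Bcl6 and Bach2, repressors of plasma cell differentiation, fell. Of 13 lipid genes, Apoe, Fabp5, Plin2 and Lpl rose (2 of 13 with clones of 6 or more profiles, 0 with no replicate block), with the fatty acid carrier Fabp5 at 136 and 61.5 CPM, against 75.4 and 30.7 CPM. Apoe, which macrophages also express, was at 343 and 1536 CPM, against 234 and 825 CPM. The marginal zone list gave 1 of 4 genes lower (Cr2), the plasma cell list 3 of 7 higher and the T cell list 2 of 8 higher, Cd3g and Lck. Over all genes tested, 5.85% were called higher and 3.04% lower. Calls of 1 or 2 genes in such short lists are not read as a result about the list. Counting clones of 6 or more profiles alone, 4 homing genes fell without S1pr4, the plasma cell list gave 2 higher and 1 lower, and the T cell list gave 1 higher without Lck.

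Large macrophage genes rose as well, 9 of 10 with a median log2 difference of 0.91. Their summed level was 3673 CPM in HFD and 8214 CPM in CD expanded clones, against 2841 and 3522 CPM in 1-barcode clonotypes, and no gene of the list was at 0 in any of these classes. Per barcode the median sum was 620 CPM in HFD and 943 CPM in CD expanded clones, against 994 and 599 CPM, with highest values of 51742 and 76555 CPM in expanded and 61312 and 79291 CPM in 1-barcode barcodes. HFD clone 1 held 58.2% of the HFD UMIs of the list and CD clone 35 23.0% of the CD UMIs. With clones of 6 or more profiles, 7 of 10 genes rose and the median log2 difference was 0.46, and with no replicate block 2 rose. Vsig4, a complement receptor of macrophages, was found in 4 of 122 HFD barcodes, 89.7% of its UMIs lying in 1 barcode of HFD clone 1, and 42.4% of its CD UMIs lay in CD clone 35. The part of these genes in the other differences was not tested.

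Against PtC-type clones, which also carry expanded IgM/kappa receptors, 338 of 9768 genes were called (3.46%), 189 higher (1.93%) and 149 lower (1.53%). Zcwpw1 was at 191 CPM in HFD and 51.3 CPM in CD expanded clones, against 299 and 387 CPM in PtC-type clones (log2 -1.67 ± 0.11, adjusted p 4.38e-49). Pdcd1lg2, a ligand of the inhibitory receptor PD-1, was at 16.9 and 15.5 CPM, against 39.2 and 50.01 CPM (log2 -1.54 ± 0.22, adjusted p 6.78e-10). The other falls of the 8 largest were in Nfkbid, Tnfrsf8, Adm, Mgmt, Retnla and Upb1, from 2.12-fold to 2.40-fold. The fall of Retnla lay almost wholly in HFD, at 4.61 CPM against 122 CPM (log2 -4.73). In CD it was at 129 CPM against 142 CPM (log2 -0.14). Of the B-1 list, Itgam rose and Bhlhe41, S100a6, Ahnak and Vim fell, of 15 tested, and Klf2 of the B-2 list fell. Bhlhe41 was at 43.1 and 33.1 CPM, against 71.4 and 52.8 CPM.

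The 8 largest rises against PtC-type clones were in Vsig4, Saa3, Anxa1, Ccl5, Pclaf, Apoc2, Cd36 and Ccl24, from 2.51-fold to 4.91-fold. Of the large macrophage list 7 of 10 genes rose, with a summed level of 1961 CPM in HFD and 4661 CPM in CD PtC-type clones beside the 3673 and 8214 CPM of expanded clones, and the part of these genes in the rises was not tested. Saa3, an acute-phase protein, was at 73.1 CPM in HFD and 829 CPM in CD expanded clones, against 38.1 and 197 CPM, and 56.5% of its CD UMIs lay in CD clone 39. Ccl5, a chemokine, was at 70.8 and 142 CPM, against 15.02 and 55.5 CPM, and 69.7% of its CD UMIs lay in CD clone 23, a single profile. With clones of 6 or more profiles, 46 genes were called, among them Vsig4, Saa3, Apoc2, Zcwpw1, Pdcd1lg2, Nfkbid, Adm and Mgmt. Of the B-1 list 1 gene then fell and 0 rose, Klf2 did not pass the test, and of the large macrophage list 2 rose. In the CD clones of that setting 4 of the 16 named genes lay on the other side of the PtC-type level. These were Ccl5 at 21.8 CPM against 55.5 CPM, Ccl24 at 5.95 against 21.8 CPM, Pclaf at 0 against 8.29 CPM and Retnla at 236 against 142 CPM. With no replicate block 0 genes were called (465 at an unadjusted p below 0.05) and with DESeq2 17, among them Vsig4 and Ccl5 of the 16 genes named here, 5 of which had no adjusted p.

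Against 1-barcode clonotypes on the B-1 side of the marker score, 409 of 10960 genes were called (3.73%), 287 higher (2.62%) and 122 lower (1.11%). This comparison shares the sums of expanded clones with both others. The largest rises were in Jchain, Pclaf, Top2a, Lipc, Sapcd1, Zcwpw1, Stmn1 and Pstpip2. Zcwpw1 was at 38.2 CPM in HFD and 21.5 CPM in CD among these 1-barcode clonotypes, and Lipc at 12.1 and 3.15 CPM. The largest falls were in Cpm, Lrrk2, Retnla, Gpr171, Ms4a4c, B3gnt8, Chchd10 and Neurl3. With no replicate block 0 genes were called (924 at an unadjusted p below 0.05), and with DESeq2 64. Of the cell cycle list 13 of 18 genes rose, 5 with DESeq2 and 0 with no replicate block. In clones of 6 or more profiles 343 genes were called and 3 cell cycle genes rose. Stmn1, a regulator of microtubules, did not pass the test there (adjusted p 0.0567), at 1.98 CPM in the CD clones against 15.6 CPM in CD 1-barcode clonotypes of the B-1 side. Pclaf and Top2a were at 0 in those CD clones. B-1 and B-2 list genes are not read in this comparison, since they chose the 1-barcode clonotypes.

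Between diets, values within expanded clones are set side by side with no test. Genes with at least 50 UMIs over both sums and 30 CPM or more in the higher library were read, without receptor, mitochondrial, ribosomal protein, Xist and Y-linked genes. Of these 3956 genes, 125 (3.16%) were apart by 1 or more on the log2 scale, 38 higher in HFD (0.961%) and 87 lower (2.2%). Highest in HFD over CD were Jchain, Ube2c, H2ac24, Eaf2, Zcwpw1, Mki67, Tppp3 and Agbl1. H2ac24, a histone gene, was at 236 CPM in HFD and 58.1 CPM in CD (log2 2.02, exact 95% counting interval 1.67 to 2.39). Tppp3, a tubulin-binding protein, had 393 CPM in HFD and 111 CPM in CD (log2 1.82), beside 2.22 in PtC-type clones and 1.97 in 1-barcode clonotypes. Zcwpw1 had a ratio of 1.89, beside -0.37 in PtC-type clones and 0.87 in 1-barcode clonotypes.

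Lowest in HFD over CD were F13a1, Retnla, Cxcl13, Hspb1, Saa3, Prtn3, Ier3 and Cxcl2. Retnla, a secreted protein of alternatively activated macrophages, was at 4.61 CPM in HFD and 129 CPM in CD (log2 -4.80, interval -6.27 to -3.66), beside -0.22 in PtC-type clones and -1.74 in 1-barcode clonotypes. Of its 191 CD UMIs, 57.1% lay in CD clone 3. Cxcl13, a chemokine that attracts B cells, reached 17.7 CPM in HFD and 399.8 CPM in CD (log2 -4.50), beside -4.95 in PtC-type clones. Of the CD UMIs of Hspb1, a small heat shock protein, 81.0% lay in CD clone 24. The same direction without the largest clone of each library was a condition for choosing these 16 genes, so it is not a result. With equal weight per clone all 16 kept their direction, and 14 of 14 with a value did so among clones of 6 or more profiles. The largest HFD clone is not the one that held the Jchain UMIs: without HFD clone 2, Jchain was at 4.07 CPM in HFD and 9.46 CPM in CD, the opposite direction (log2 -1.22). With equal weight per clone 8 of the 16 ratios lay outside their counting intervals, among them Retnla at -3.45 and Eaf2 at 0.85, against 1.92 over all barcodes. The median log2 ratio of the large macrophage list was -1.05 over all clones and 0.06 among clones of 6 or more profiles.

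**Figure D5:**
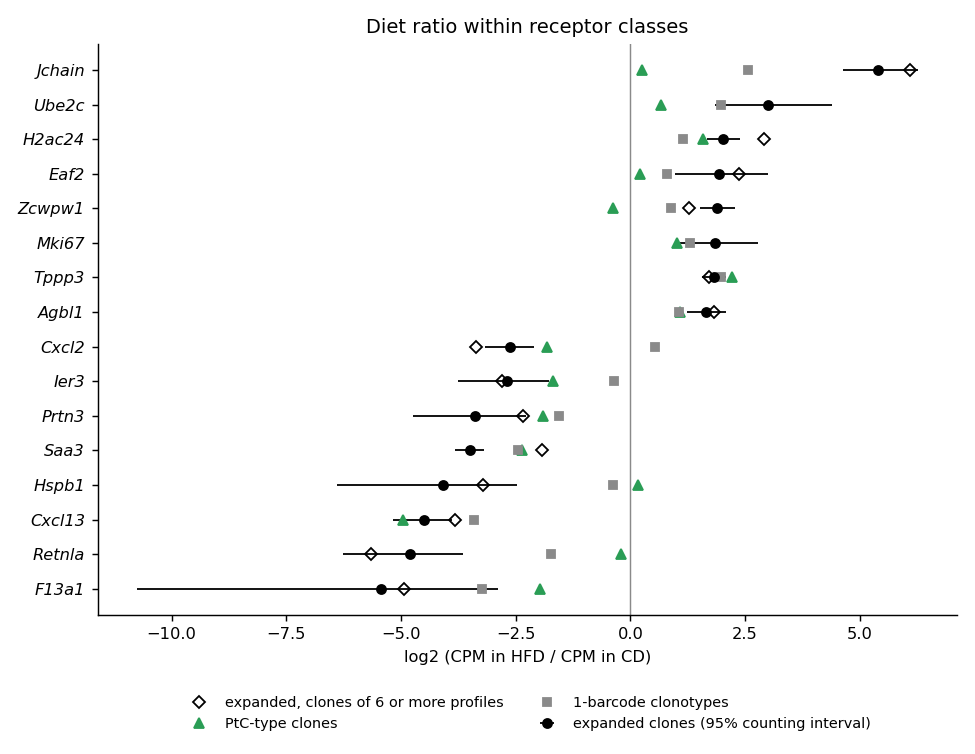
Log2 ratio of CPM in HFD over CD for the 16 genes furthest apart; black circles with 95% counting intervals are expanded clones, open diamonds expanded clones of 6 or more profiles, green triangles PtC-type clones and grey squares 1-barcode clonotypes. Tppp3 and Cxcl13 have ratios of the same sign in every class, whereas Zcwpw1 lies at -0.37 in PtC-type clones and 1.89 in expanded clones.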

How the data were processed

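Per the labels, the authors deposited 1 gene expression and 1 receptor library for each diet; per the submitters' processing notes these were made with Cell Ranger 6.0.1, Seurat 4.3.0 and mm39, whereas the matrix headers name Cell Ranger 8.0.1. The deposited matrices hold raw UMI counts per gene and barcode, and the deposited contig tables hold UMI counts per contig. Members and gene lists were chosen with earlier results of these data known. Clonotypes were built from contigs with 1 IgM and 1 kappa chain and joined to the matrices by barcode. UMIs were summed per library and class, giving 1300114 in HFD and 1480681 in CD for expanded clones and 9035840 and 12448691 for 1-barcode clonotypes. V, D and J segment genes were left out. Genes with at least 10 UMIs in at least 2 of 4 sums were tested with edgeR 4.0.16 (quasi-likelihood, TMM, Benjamini-Hochberg threshold 0.05). The library was a block because the 2 classes compared, which are different barcodes, come from the same library. DESeq2 1.42.0 was an alternative. Scripts were tested on simulated data with an assumed spread. There 42%, 38.4% and 39.6% of changes of 1 on the log2 scale were called. These stand for the comparisons with 1-barcode, PtC-type and B-1-side barcodes in that order. A gene that did not pass the test is therefore not shown to be unchanged. CPM uses the total of each sum. Named genes were the 12 highest and 12 lowest by log2 difference among called genes with the same direction in both libraries at 30 CPM or more. In the other comparisons 8 and 8 were named. The diet ratio also gave 8 and 8, among genes with at least 50 UMIs and 30 CPM or more in the higher library. These had to keep their direction without the largest clone of each library. Receptor, mitochondrial, ribosomal protein, Xist and Y-linked genes were left out, and list genes were named in any case. Between diets there is no replicate and no test. Intervals are exact (95%) and cover counting error only. Python 3.11.15, scipy 1.17.1 and R 4.3.3 were used. Some genes of the lists are counted but not reported here by name.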

Additional observations from a re-analysis of the deposited data

Results flagged for a closer look

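Among the list genes tested against 1-barcode clonotypes and the named genes, opposite directions in the 2 libraries were looked for. In 3 of these genes the log2 ratio of expanded clones over 1-barcode clonotypes had opposite directions with counting intervals that excluded 0 in both libraries. Other genes were not searched, and the difference between the libraries was not tested. For Anxa1, an anti-inflammatory phospholipid-binding protein, it was -1.24 in HFD and 0.45 in CD. For the chemokine Ccl5 it was -0.66 in HFD and 0.76 in CD, and CD clone 23, a single profile, held 69.7% of the CD UMIs. For Slpi, a secreted protease inhibitor, it was -0.67 in HFD and 0.44 in CD, and HFD clone 3 held 78.8% of the HFD UMIs. With clones of 6 or more profiles and 1 barcode per profile, all 3 genes were lower than in 1-barcode clonotypes in both libraries. Anxa1 was at 28.9 CPM in HFD and 31.7 CPM in CD clones, against 67.4 and 50.5 CPM, and its CD ratio had a counting interval of -1.49 to 0.04. Ccl5 was at 71.0 and 21.8 CPM, against 112.0 and 84.4 CPM. Slpi was at 1035 and 382 CPM, against 1639 and 1056 CPM.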

How the results depend on the processing

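Clone numbers moved with the size threshold and with which barcodes were counted. With 4 or more barcodes there were 22 HFD and 158 CD clonotypes (903 CD barcodes), and with 10 or more 5 and 7 (126 CD barcodes). CD had 22 clonotypes with 202 barcodes when only barcodes with expression data counted, 7 with 70 when barcodes within counting noise counted once, 6 with 57 when these were grouped at 1.2, and an expected 9.38 with 82.1 when thinned to the HFD number of paired barcodes. The settings on counting noise were chosen after seeing the data. The library block pairs both classes of a library by construction. Against 1-barcode clonotypes 1017 genes were called, 194 with DESeq2 (147 higher, 47 lower) and 196 with no replicate block. Without the largest clone of each library 580 were called, and 802 with clones of 6 or more profiles. With no filter the median log2 difference of all genes was -0.11. Against PtC-type clones 338 were called, 17 with DESeq2, 0 with no replicate block, 145 without the largest clones and 46 with clones of 6 or more profiles. Against B-1-side clonotypes 409 were called, 64 with DESeq2 and 0 with no replicate block. Heavy V regions with at least 2 differences made up 2.24% of HFD 1-barcode clonotypes and 9.55% of CD expanded barcodes. The cause of these shifts was not tested. With clones of 6 or more profiles the CD log2 ratio over 1-barcode clonotypes turned to -0.67 for Anxa1, -1.95 for Ccl5 and -1.46 for Slpi, and the diet median of the large macrophage list to 0.063. Without HFD clone 2 the diet ratio of Jchain turned to -1.22. These settings were chosen after seeing the data. Equal weight per clone turned no direction among the named genes of the 1-barcode and diet comparisons but moved most values against 1-barcode clonotypes, such as Jchain to 3.83 and Krt8 to 1.32 on the log2 scale, and Jchain to 4.41 between diets. With 1 library per diet, greater depth narrows counting error but does not measure the spread between mice, which cannot be told apart from diet.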
